A study of Mus musculus with 3 samples.

Results

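RGS proteins (regulators of G protein signalling) speed up the switching off of G proteins, and 8 of their genes were followed here in regulatory T cells. The members are Rgs1, Rgs2, Rgs3, Rgs10, Rgs14, Rgs16, Rgs18 and Rgs19. They were taken by gene symbol, as listed, and all 8 were found among the 55536 mouse genes of the deposited gene table. The RNA-seq libraries, selected for polyA, came from regulatory T cells labelled as activated, taken from a male mouse aged 4 months whose strain is given as Foxp3CreERT2 x Rosa26YFP. Foxp3CreERT2 places an inducible Cre recombinase under the control of Foxp3, which specifies the regulatory lineage, and Rosa26YFP is a fluorescent reporter. The 3 libraries are labelled technical replicates 1, 2 and 3 of 1 biological replicate, and their RNA fragments were selected at 100 to 300 bp. All libraries belong to 1 group without a control, so the data give levels, transcript makeup and the spread between libraries, and no difference between conditions. How the cells were sorted and any agent given to the mouse are not stated in the sources used here.

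Chemokine receptors and the receptors for sphingosine 1-phosphate signal through heterotrimeric G proteins of the Gi class: the activated receptor loads the alpha subunit with GTP, and the alpha and beta gamma subunits then drive cell movement. An RGS domain binds the GTP-loaded alpha subunit and speeds up GTP hydrolysis, which ends the signal. In lymphocytes, RGS proteins are known for limiting migration towards chemokines and for helping to set how long cells stay in a tissue.

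The members fall into the subfamilies that the shape of the protein defines. Rgs1, Rgs2, Rgs3, Rgs16 and Rgs18 belong to the R4 subfamily, mostly small proteins with little beside the RGS domain. Rgs10 and Rgs14 belong to the R12 subfamily, in which Rgs14 carries Ras-binding domains and a GoLoco motif beside its RGS domain. Rgs19, also called GAIP, belongs to the RZ subfamily. On mouse genome mm10, Rgs2 (143999338 to 144004161), Rgs1 (144242296 to 144249242) and Rgs18 (144752683 to 144775435) lie on the minus strand of chromosome 1 in 1 cluster. From Rgs2 to Rgs18 this stretch of 776 kb holds 5 protein-coding genes, which are these 3 members with Rgs13 and Rgs21. Rgs16 is also on chromosome 1, from 153740349 to 153745468 on the plus strand. Rgs3 lies on chromosome 4 from 62559847 to 62704001 and Rgs14 on chromosome 13 from 55369732 to 55384687, both on the plus strand. Rgs10 lies on chromosome 7 from 128373621 to 128418758 and Rgs19 on chromosome 2 from 181688419 to 181693977, both on the minus strand.

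The R4 members share an exon layout that was not used to choose them. In Rgs1, Rgs2, Rgs3, Rgs16 and Rgs18 a coding exon of 62 bases is followed by a coding exon of 164 bases (Rgs1) or 167 bases (the other R4 members), in the part of the gene that encodes the RGS domain. Of 21866 protein-coding genes in the M21 annotation, 9 have such a pair of exons (0.0412%), and 8 of the 9 are in the 21-gene RGS family list. The lengths searched for were read from the R4 members, so these 5 were bound to be among the 9, and the others are Rgs4, Rgs5, Rgs13 and Sdhc. The layout was not found in Rgs10, Rgs14 or Rgs19. The exon of 62 bases is shown for each R4 member because it is the same length in all of them and lets their relatedness be seen base by base. Capitals mark the 17 of 62 positions that are identical in all 5 exons. Sequences are 5′ to 3′ on the gene's own strand, from the GENCODE M21 transcripts on mm10.
Rgs1, chr1:144247906-144247967, minus strand: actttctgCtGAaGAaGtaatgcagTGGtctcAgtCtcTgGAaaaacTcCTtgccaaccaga
Rgs2, chr1:144002780-144002841, minus strand: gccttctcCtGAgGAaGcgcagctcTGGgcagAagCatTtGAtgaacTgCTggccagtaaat
Rgs3, chr4:62700354-62700415, plus strand: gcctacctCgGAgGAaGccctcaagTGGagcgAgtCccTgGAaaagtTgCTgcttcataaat
Rgs16, chr1:153741620-153741681, plus strand: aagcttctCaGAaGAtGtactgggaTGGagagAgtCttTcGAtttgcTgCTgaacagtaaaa
Rgs18, chr1:144773521-144773582, minus strand: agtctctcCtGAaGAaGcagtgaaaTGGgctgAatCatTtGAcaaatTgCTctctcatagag
Over the 10 pairs, identity ran from 32 to 39 of 62 bases, and it was highest between Rgs2 and Rgs18, both in the cluster on chromosome 1.

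The 3 libraries were not equally deep and replicate 3 stood apart from the others. Replicates 1, 2 and 3 held 10981924, 9700630 and 6667391 expected counts over all genes. Gene by gene, replicates 1 and 2 differed by a chi-square of 11.4 per degree of freedom, against 30.7 for replicates 1 and 3 and 30.3 for replicates 2 and 3. The labelled cell type was checked against markers. All 6 T cell markers and all 5 regulatory T cell markers were detected, meaning a TPM (the level per length, scaled to the same total in each library) of at least 1 in all 3 libraries, and Foxp3 was at 29.5, 28.7 and 49.8 TPM. Ctla4, an inhibitory receptor gene of the regulatory T cell list, was at 190.2, 249.6 and 612 TPM in replicates 1, 2 and 3, with an adjusted p of 0.000494 under the trended dispersion of edgeR, while Tnfrsf18, Ikzf2 and Il2ra were lowest in replicate 3. The T cell markers summed to 7890, 7850 and 5027 TPM in replicates 1, 2 and 3, and each of the 6 was lowest in replicate 3. Plasma cell markers summed to 64.7, 31.3 and 122 TPM, with 3 of 5 detected and Tnfrsf17 at 0 to 0.28 TPM. Jchain, at 43.4, 4.70 and 69.6 TPM, was the largest part in replicates 1 and 3. In replicate 2 the largest part was Prdm1, at 11.6, 21.5 and 20.9 TPM in replicates 1, 2 and 3. B cell markers summed to 106, 69.7 and 86.8 TPM, with 4 of 7 detected and Pax5 at 0.76 to 1.75 TPM. Myeloid markers summed to 9.88 to 27.9 TPM (3 of 9 detected) and NK markers to 14.1 to 15.7 TPM (2 of 6 detected, with Ncr1 at 0 to 0.14 TPM). Erythroid markers, mostly haemoglobin genes, summed to 801, 5.30 and 24.3 TPM, with 2 of 7 detected. In bulk RNA, fewer cells of a type and less RNA per cell cannot be told apart.

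Rgs1 stood highest. Its product is known for dampening chemokine and sphingosine 1-phosphate responses in B and T cells. Rgs1 was at 526, 462 and 711 TPM in replicates 1, 2 and 3, a mean of 566 ± 130 TPM (SD, n = 3). That mean placed it at rank 211 among protein-coding genes and 261 among all genes. It was highest in replicate 3, and even its lowest library was above every library of the other members. Without replicate 3 its mean was 494 TPM.

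Rgs10 and Rgs19 came next, at levels that overlapped. Rgs10, a small protein that acts on Gi alpha subunits, was at 280.1, 239.9 and 107 TPM in replicates 1, 2 and 3, a mean of 209 ± 90.7 TPM (SD, n = 3). Its level in replicate 3 was below that in each of the others, and the mean without replicate 3 was 260.0 TPM. Rgs19, which also acts on Gi alpha subunits, was at 165, 186 and 172 TPM, a mean of 174 ± 10.9 TPM (SD, n = 3). It had the narrowest spread of the members that were detected, at 6.28% of its mean.

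Rgs14, Rgs3, Rgs2 and Rgs16 formed a lower group in which each overlapped its neighbour in the order. Rgs14 was at 54.6, 71.6 and 45.6 TPM, a mean of 57.3 ± 13.2 TPM (SD, n = 3). Rgs3, whose transcripts differ widely in length and in the domains they encode, was at 40.1, 50.4 and 32.5 TPM, a mean of 41.0 ± 9.01 TPM. Both were highest in replicate 2 and lowest in replicate 3.
Rgs2, known for its preference for Gq alpha subunits over Gi, was at 17.3, 22.2 and 38.5 TPM, a mean of 26.0 ± 11.1 TPM (SD, n = 3). Rgs16, a gene known to be induced when T cells are activated, was at 21.6, 16.8 and 7.63 TPM, a mean of 15.3 ± 7.08 TPM. Replicate 3 held the highest Rgs2 and the lowest Rgs16. Without replicate 3 the means were 19.7 TPM for Rgs2 and 19.2 TPM for Rgs16.

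Rgs18, known as a gene of platelets and megakaryocytes, was the member that was not detected. It had 2, 1 and 3 expected counts in replicates 1, 2 and 3, or 0.12, 0.07 and 0.30 TPM. All of these are at or under the 3 counts that a count of 0 allows, which is a CPM (the count scaled to the library's total) of 0.273, 0.309 and 0.450, so presence could not be told from absence at this depth. In the M4 counts Rgs18 had 1, 0 and 5, which is above 3 in replicate 3 alone. None of the 8 platelet and megakaryocyte markers was detected, and Gp9, Gp1bb and Treml1 had 0 counts in all libraries. The other 7 members were detected, 87.5% of the 8, beside 45.5% of all protein-coding genes.

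**Figure D1:**
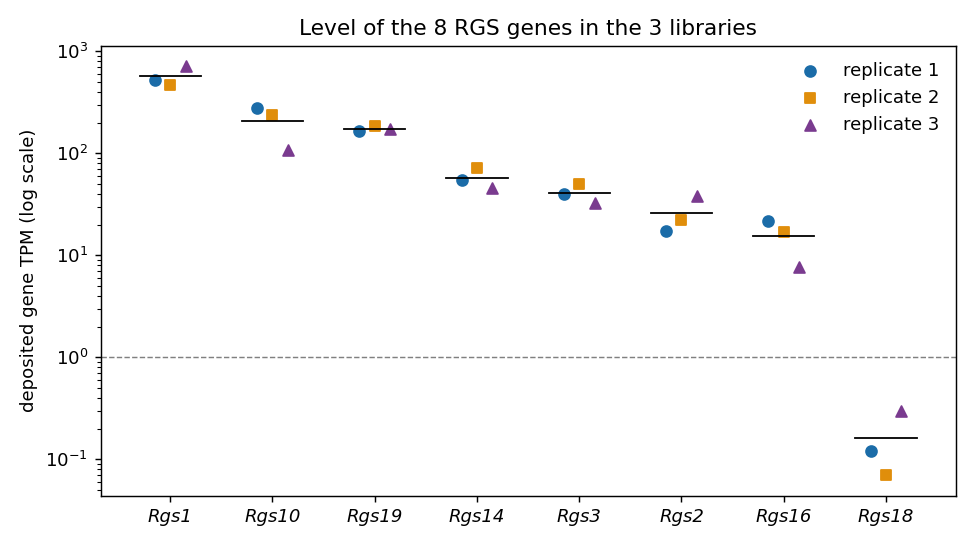
Deposited gene TPM (log scale) of the 8 RGS genes, with a point for each library, a black bar at the mean of the 3 libraries and a dashed line at the detection level of 1 TPM. Rgs1 lies above all others, with 462 to 711 TPM, the next 6 genes form 2 overlapping groups, and Rgs18 lies below the line at 0.07 to 0.30 TPM.

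Of the 7 pairs of neighbours in the order by mean TPM, 3 were apart in the sense that their ranges over the libraries did not overlap. These were Rgs1 over Rgs10, Rgs19 over Rgs14, and Rgs16 over Rgs18. The second deposited quantification gave the same order with 4 pairs apart, the added one being Rgs2 over Rgs16. Its absolute levels were lower throughout: the ratio of main to second mean TPM was 1.68 in the median of 12958 genes, and ran from 1.38 to 1.93 in the members other than Rgs18. Another deposited table, without a header and taken as whole-number counts on the older gene models of release M4, moved 1 gene when divided by coding bases. On that scale Rgs3 was at 11.5, 13.6 and 9.54 TPM, below all libraries of Rgs16, at 36.2, 28.2 and 15.9 TPM. The coding bases of Rgs3, pooled over all its annotated transcripts with each base counted once, came to 3694, against 603 for Rgs16.

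Across the whole family list of 21 genes, the members made up nearly all of the signal. The 21 genes summed to 1123, 1067 and 1122 TPM in replicates 1, 2 and 3, and the 8 members held 98.7 ± 0.563% of it (SD, n = 3). Rgs1 alone held 46.8%, 43.3% and 63.4%. The sum thus stayed within a narrow range while the share of Rgs1 was largest in replicate 3. Beside the members, 2 genes were detected. Rgs11, of the R7 subfamily, was at 5.64 ± 2.25 TPM and Rgs12, a relative of Rgs10 and Rgs14, was at 4.67 ± 2.20 TPM (SD, n = 3 each). Rgs9, also of the R7 subfamily, was at 4.29, 3.58 and 0.87 TPM, under the level of detection in replicate 3. Rgs13, the neighbour of Rgs1 in the cluster and known from B cells, was at 0.65, 0.50 and 0.27 TPM. Rgs5, Rgs21 and Rgs22 had 0 counts in all 3 libraries. In the second quantification Rgs4 was at 0.863, 1.15 and 1.24 TPM, against 0, 0.30 and 0 TPM in the main one.

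**Figure D2:**
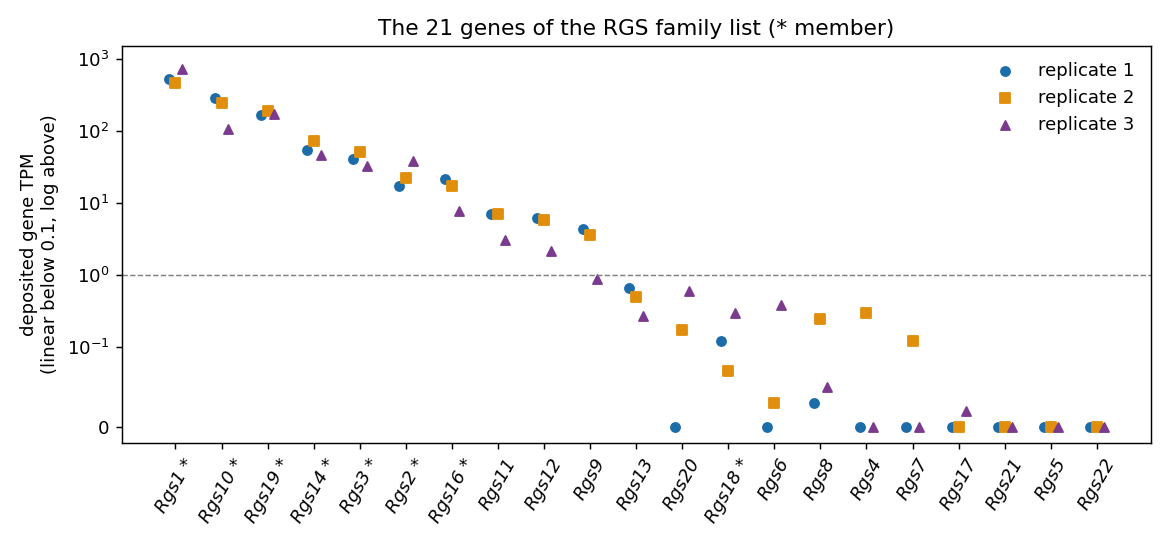
Deposited gene TPM of the 21 genes of the RGS family list, ordered by mean, with a point for each library and a star at each of the 8 members. The axis is logarithmic above 0.1 and linear below it, so that values of 0 can be shown. The 7 highest genes are all members, and the eighth member, Rgs18, lies among genes near 0.

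Because no condition was varied, the test over libraries asked only whether a gene's counts differed between them by more than sampling noise. Of 12997 genes averaging 10 or more counts, 8496 did (65.4%), so a call of this kind was the usual outcome. Of the members, 7 could be tested and all 7 were called, which is to be read against that background. In counts scaled by library size, 5 of them were lowest in replicate 3 (Rgs3, Rgs10, Rgs14, Rgs16 and Rgs19), beside 32.6% of all genes tested that were called and lowest there. The direction of Rgs19 depended on the scale, since its lowest TPM was in replicate 1. The lowest library of Rgs2 also depended on the scale, being replicate 2 in scaled counts and replicate 1 by TPM. Rgs1 and Rgs2 were highest in replicate 3, beside 22.9% of all genes tested. When the trended dispersion of edgeR was added to the variance, 150 genes were called (1.15%) and no member was. Of the members, 3 (Rgs2, Rgs10 and Rgs16) had an unadjusted p under 0.05 in that model, as did 5.06% of all genes tested.

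Rgs16 and Rgs10 had the widest spread between libraries, with intervals that overlapped. Rgs16 had 417, 268 and 90 counts in replicates 1, 2 and 3, and the scaled level in replicate 1 was 3.00 times that in replicate 3, with an exact 95% interval of 2.38 to 3.81. The adjusted p of Rgs16 was 2.30e-21 against sampling noise and 0.687 with the trended dispersion of edgeR. Rgs10 had 1738, 1238 and 414 counts, a fold of 2.72 with an interval of 2.44 to 3.03 and adjusted p of 9.05e-77 and 0.416 in the same 2 models. Both genes fell from replicate 1 to replicate 2 to replicate 3. The T cell markers were also lowest in replicate 3, but their sums in replicates 1 and 2 were close. Of these markers, Lck, Cd3e and Cd4 were highest in replicate 2, and Trac, Cd3g and Cd3d in replicate 1. Whether the lower T cell markers of replicate 3 have a part in these values was not tested.

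Rgs2 went the other way. It had 169, 146 and 230 counts in replicates 1, 2 and 3, and the scaled level in replicate 3 was 2.19 times that in replicate 2, with an interval of 1.77 to 2.71. The adjusted p was 2.09e-17 against sampling noise and 0.540 with the trended dispersion of edgeR. Between replicates 1 and 2 alone, Rgs2 did not pass the test, with an adjusted p of 0.783. Rgs1 had 6018, 4186 and 5145 counts, and replicate 3 was 1.71 times replicate 2, with an interval of 1.64 to 1.78. For Rgs1 the call rested on no single library: the adjusted p was 5.91e-38 even without replicate 3. With the trended dispersion of edgeR the adjusted p of Rgs1 was 1. The summed TPM of the plasma cell markers was highest in replicate 3 too. So were Foxp3 and Ctla4 of the regulatory T cell list, while Tnfrsf18, Ikzf2 and Il2ra of that list were lowest there. Whether any of these has a part in the values of Rgs1 and Rgs2 was not tested.

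Rgs14 and Rgs3 had folds whose intervals overlapped that of Rgs1, and Rgs19 had the smallest fold of the members tested. Rgs14 had 1035, 1135 and 502 counts and Rgs3 had 941, 954 and 418, with folds of 1.63 (interval 1.46 to 1.81) and 1.64 (interval 1.46 to 1.85). Their adjusted p was 3.15e-18 for Rgs14 and 1.06e-15 for Rgs3 against sampling noise, and 1 for both with the trended dispersion of edgeR. Rgs19 had 1785, 1624 and 1031 counts and a fold of 1.13, with an interval of 1.05 to 1.23. Its adjusted p of 0.00672 did not hold under total count scaling, at 0.178, or without replicate 3, at 0.961. The range of log2(TPM + 1) over the libraries had a median of 0.64 in the 7 members tested and 0.49 in all genes tested. Rgs16, Rgs10 and Rgs2 lay at percentiles 95.2, 95.1 and 90.2 of all genes tested, while Rgs19 lay at percentile 9.6.

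**Figure D3:**
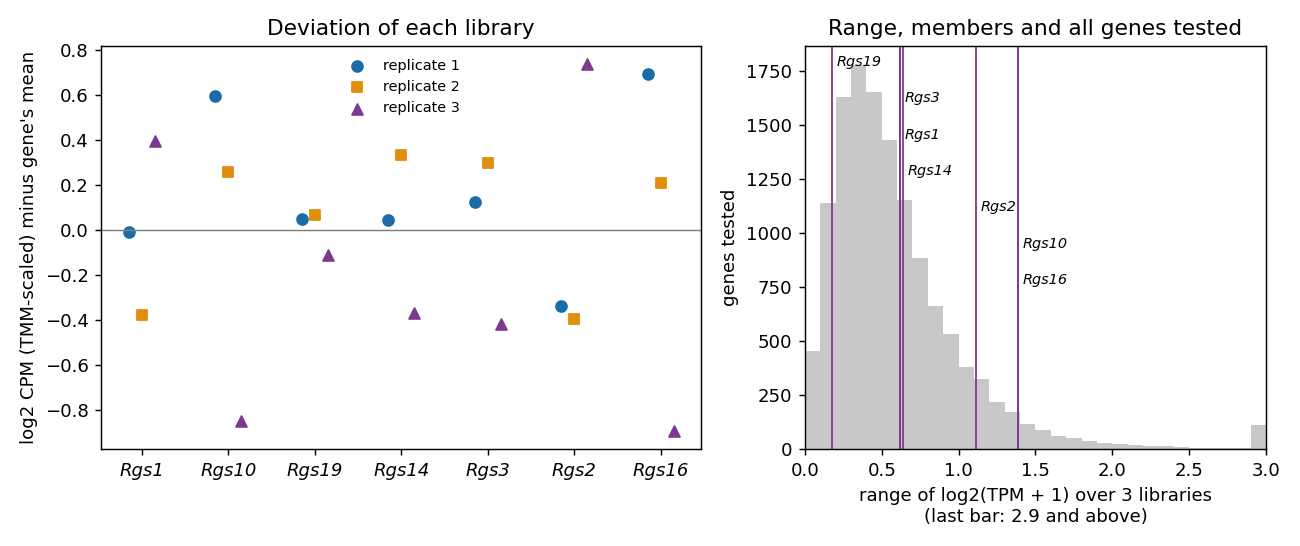
Left, log2 CPM (scaled by TMM, the scaling of edgeR) of each library minus the mean over the 3 libraries for the 7 members tested. Right, the range of log2(TPM + 1) over the libraries for all 12997 genes tested (grey bars) with a line at each member. Replicate 3 is the highest library for Rgs1 and Rgs2 and the lowest for the other 5, and the lines of Rgs10 and Rgs16 fall in the upper tail at a range of 1.38 and 1.39.

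The genes whose pattern over the 3 libraries was most like that of Rgs16, by the largest difference in log2(TPM + 1) centred on its mean, were Rfesd, Rnf213 and Actg2, at differences of 0.02, 0.02 and 0.03. For Rgs10 they included 1810009A15Rik and Dynll1, at differences of 0.01 and 0.02. With 3 libraries such likeness is common: 108 of 8044 protein-coding genes lay within 0.2 of Rgs16 and 128 within 0.2 of Rgs10.

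The makeup of transcripts set Rgs1 and Rgs3 apart from the other members. Transcript shares are percents of the gene's TPM, per the annotated transcript and its class in release M21. Over 8042 protein-coding genes averaging at least 100 counts, the median gene had 86.1% of its level in transcripts annotated as protein coding. In Rgs1 this share was 2.14%, which 28 of the 8042 genes had or fell below, and in Rgs3 it was 11.2%. In Rgs2 it was 57.0%, in Rgs14 84.7%, in Rgs19 92.6% and in Rgs10 99.5%. Rgs16 and Rgs18 have only 1 annotated transcript each, which is protein coding.

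**Figure D4:**
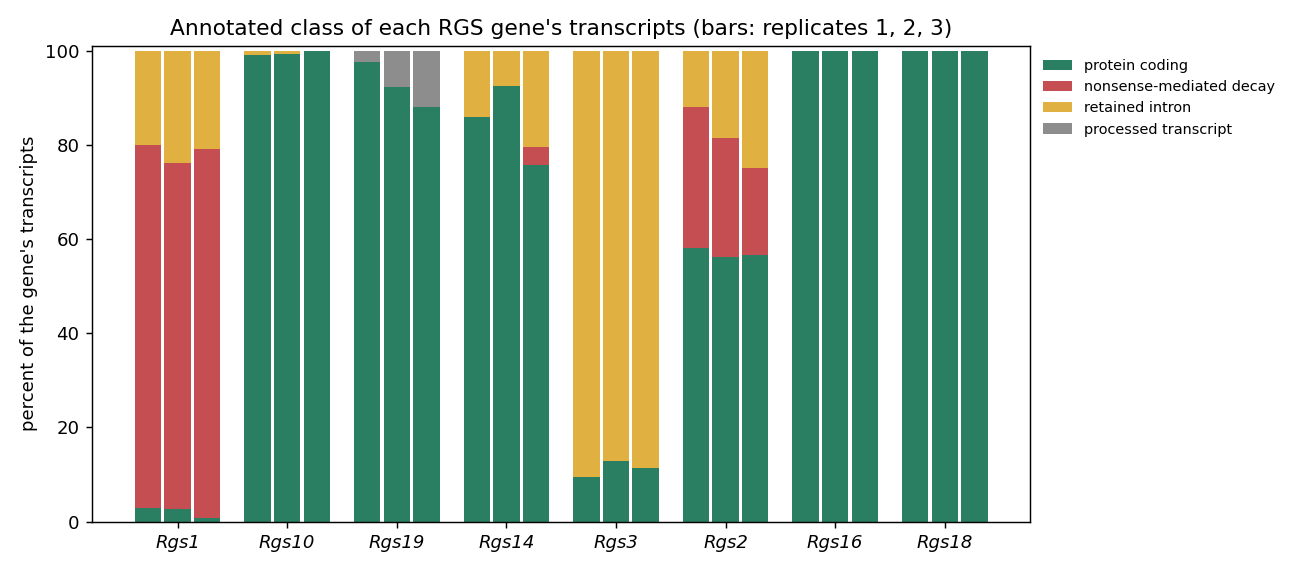
Percent of each gene's transcripts in 4 annotated classes, stacked, with a bar each for replicates 1, 2 and 3, and genes ordered by mean TPM. Rgs1 is mostly in the class of nonsense-mediated decay and Rgs3 mostly in that of retained introns in all 3 libraries, while Rgs10, Rgs16 and Rgs18 are nearly or wholly protein coding.

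The leading transcript of Rgs1 was Rgs1-204, annotated as a target of nonsense-mediated decay, the pathway that removes messages with an early stop codon. It held 66.6%, 63.9% and 66.6% of the gene's level in replicates 1, 2 and 3, a mean of 65.7 ± 1.57% (SD, n = 3). Rgs1-203, a short transcript with a retained intron (414 nt), held 17.8 ± 2.25%. Rgs1-208, the protein-coding transcript of 3841 nt, held 1.13%, 1.09% and 0.88%. The share of Rgs1-204 thus stayed within 63.9% to 66.6% while the Rgs1 level ran from 462 to 711 TPM.
Rgs1-204 and Rgs1-208 differ at both ends. Exon 2 of Rgs1-204 starts 49 bases upstream of exon 2 of Rgs1-208 and is 130 bases long against 81. Its last exon is 815 bases long, against 3192 in Rgs1-208, so that Rgs1-204 also has the shorter 3′ end. The annotated coding sequence is 138 bases in Rgs1-204 and 627 bases in Rgs1-208. The tables used here give no reads per splice junction, so whether reads at the start of exon 2 or the length of the 3′ end set the share of Rgs1-204 was not tested. By expected counts, which do not correct for length, Rgs1-204 held 59.3%. Next came Rgs1-205, annotated as a retained intron with 1 exon of 5843 nt, at 16.9%. Rgs1-202 held 8.58%, Rgs1-206 7.59%, Rgs1-203 3.38% and Rgs1-208 2.97%. In the second quantification Rgs1-204 led as well, with 56.1 ± 1.87% of TPM (SD, n = 3), and Rgs1-208 held 0.118%.

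Most of the Rgs3 level was assigned to 2 transcripts annotated as retaining an intron. Rgs3-214 (2911 nt) held 52.1%, 44.8% and 35.5% in replicates 1, 2 and 3, a mean of 44.1 ± 8.34% (SD, n = 3). Rgs3-209 (3005 nt) held 26.0%, 28.2% and 21.9%, a mean of 25.3 ± 3.18%. After its first exon, Rgs3-214 has the same exon lengths and the same end as the protein-coding Rgs3-202. The last exon of Rgs3-209 has the length (2738 bases) and end of that in the protein-coding Rgs3-201 and Rgs3-205. Much of both transcripts is thus laid out as in protein-coding ones. Without reads per splice junction, which reads set these shares was not tested. Both classes of 3′ end of the gene were in use. Transcripts with the downstream last coding exon (mm10 chromosome 4 from 62702060 to 62702242) held 55.6 ± 2.22%, and those with the upstream one (from 62657103 to 62657207) held 33.5 ± 3.57%. Rgs3-214 has the downstream exon and Rgs3-209 the upstream one. The downstream group was the larger in every library, with 53.6% to 58.0% downstream against 29.9% to 37.0% upstream. An antisense gene that overlaps Rgs3, Gm11209, had 5, 6 and 1 counts, against 418 to 954 for Rgs3.

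Rgs2 was the member whose leading transcript depended on the measure. By TPM, Rgs2-204 (588 nt) held 34.1 ± 4.28%, Rgs2-201 (763 nt, annotated to nonsense-mediated decay) 24.5 ± 5.66%, Rgs2-202 (3021 nt) 23.0 ± 4.82% and Rgs2-203 (650 nt, a retained intron) 18.5 ± 6.43% (SD, n = 3 each). By expected counts Rgs2-202 led with 63.1 ± 6.67% and Rgs2-204 held 14.0 ± 3.52%. Rgs2-202 is the longest Rgs2 transcript, and a longer transcript gives more fragments at the same TPM. The shares rest on few counts: Rgs2-204 had 20.6, 26.4 and 27.2 expected counts in replicates 1, 2 and 3. Rgs2-203 had 8.8, 14.5 and 25.3.

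The other members had 1 clear leading transcript, all of them protein coding. Rgs10-201 held 98.8 ± 1.08% and Rgs14-201 84.7 ± 8.49% (SD, n = 3 each). Rgs14-202, with a retained intron, held 12.0%, 5.41% and 18.3% of Rgs14. Rgs19-201 held 61.0%, 69.8% and 46.3% in replicates 1, 2 and 3, a mean of 59.1 ± 11.9%, and Rgs19-202 held 9.35%, 11.4% and 22.9%. In replicate 3 Rgs19 thus had its lowest share of Rgs19-201 and its highest share of Rgs19-202, while its level stayed within 165 to 186 TPM. In the second quantification Rgs19-201 varied less, at 49.6%, 47.2% and 44.6% in replicates 1, 2 and 3. Rgs19-202 was at 12.2%, 13.2% and 30.1% there. Rgs19-206 and Rgs19-212 are annotated with the same start, end and exon lengths and received identical shares in every library. The split between them therefore cannot be read from these data. On the same strand as Rgs10, the overlapping gene Gm15503 had 31, 33 and 22 counts, and Gm28513, antisense to Rgs16, had 0.

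**Figure D5:**
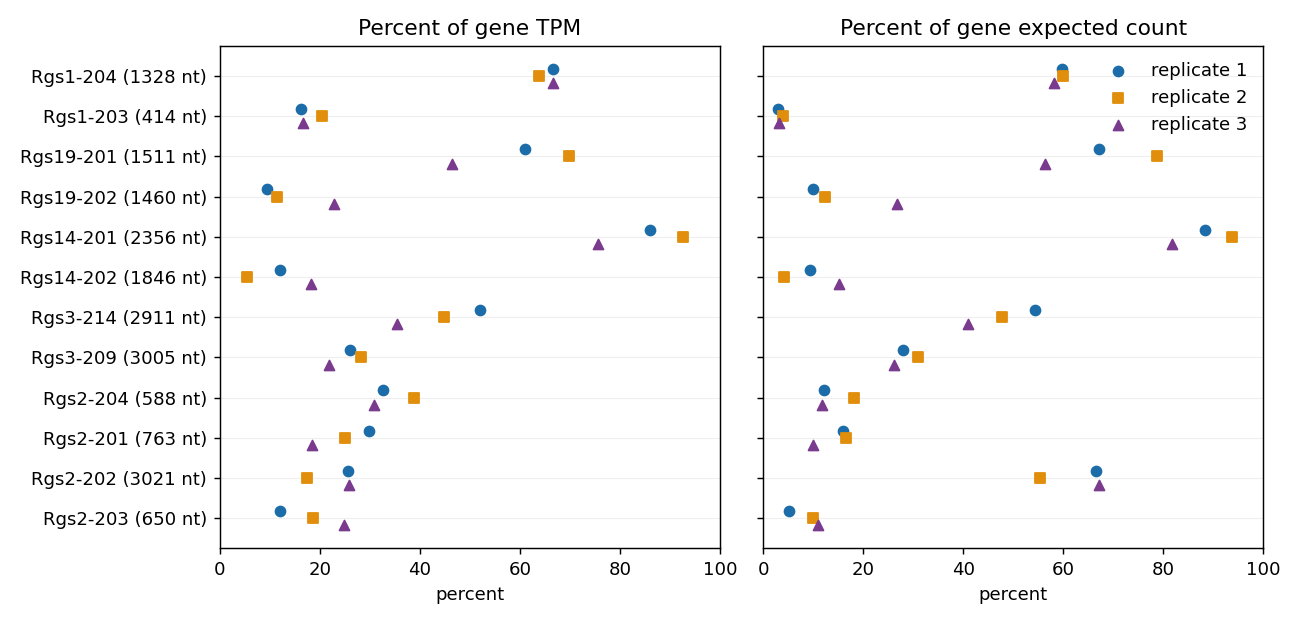
Share of each transcript with a mean of at least 10% in Rgs1, Rgs19, Rgs14, Rgs3 and Rgs2, as percent of gene TPM (left) and percent of the gene's expected count (right), with a point for each library and the transcript length in nt. Rgs1-204 leads on both scales, while in Rgs2 the 3021-nt Rgs2-202 has 23.0% on the left and 63.1% on the right.

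RGS proteins act on G alpha subunits. Of 13 G alpha genes, 10 were detected, led by Gnai2 at 179 ± 45.0 TPM, Gnai3 at 97.0 ± 12.0 TPM and Gnas, the alpha subunit that stimulates adenylyl cyclase, at 77.5 ± 8.59 TPM (SD, n = 3 each). Gnai1 had 0 counts in all libraries. Both Gi alpha genes with a level were highest in replicate 3, with Gnai2 at 142, 166 and 229 TPM in replicates 1, 2 and 3. Of the 10 tested, 8 were called against sampling noise, beside 65.4% of all genes tested. Of these, 6 were highest in replicate 3, beside 22.9% of all genes, and none was lowest there, beside 32.6%. Of 15 G beta and gamma genes, 9 were detected, led by Gng5 at 221 ± 47.0 TPM, Gng10 at 138 ± 19.6 TPM and Gnb1 at 120.1 ± 48.5 TPM, while Gng8 was at 0. Of the 9 tested, 5 were called (65.4% of all genes were), 4 of them lowest in replicate 3 (32.6% of all genes).

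Of 19 receptor genes coupled to Gi, 14 were detected. Ccr7, the receptor that guides T cells into lymph nodes, was at 253 ± 72.6 TPM, Cxcr3, the receptor for interferon-induced chemokines, at 221 ± 66.9 TPM and S1pr1, the exit receptor for sphingosine 1-phosphate, at 171 ± 21.6 TPM (SD, n = 3 each). The lowest was Cx3cr1, at 0.363 ± 0.0586 TPM. Of the 18 tested, 17 were called against sampling noise, beside 65.4% of all genes tested, with 12 lowest (32.6% of all genes) and 4 highest in replicate 3 (22.9%). With the trended dispersion of edgeR, 2 were called, Cxcr6 and Cxcr4, beside 1.15% of all genes. Cxcr6, the receptor for CXCL16, was at 225, 184 and 44.0 TPM in replicates 1, 2 and 3, with an adjusted p of 0.00749 in that edgeR model. Cxcr4, the receptor for CXCL12, was at 5.83, 7.86 and 25.2 TPM, with an adjusted p of 0.000661 there. Replicate 3 was the lowest library for Cxcr6, and in scaled counts also for Rgs3, Rgs10, Rgs14, Rgs16 and Rgs19. It was the highest for Cxcr4, Rgs1 and Rgs2. Given the shares of all genes above, such a match in 1 library is common, and a link was not tested.

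Of 15 other regulators of the receptor or the G protein, 13 were detected. The highest were Gpsm3, which holds Gi alpha in its GDP-bound form, at 219 ± 59.0 TPM, Arrb2, a beta-arrestin, at 104 ± 6.30 TPM, and Grk2, a receptor kinase, at 78.5 ± 14.4 TPM (SD, n = 3 each). Rgs1 was above each of these in all libraries. The lowest was Pcp2, at 0.123 TPM. Of the 13 tested, 9 were called, near the background of 65.4%, with 4 lowest (32.6% of all genes) and 5 highest in replicate 3 (22.9%). Of 20 effector genes of Gi and beta gamma, 16 were detected, with Rac2 at 2108 ± 643 TPM, Dock2 at 228 ± 76.8 TPM and Rap1a at 156 ± 10.6 TPM, and with Plcb1 lowest at 0.0167 TPM. Of the 17 tested, 16 were called, beside 65.4% of all genes, with 8 lowest (32.6% of all genes) and 3 highest in replicate 3 (22.9%). Under total count scaling the number of called genes lowest or highest in replicate 3 changed by at most 1 in each of these 5 lists, and under DESeq2 size factors it did not change. Between libraries the median range of log2(TPM + 1) was 0.49 for all genes tested. Among the tested genes of these lists it was 0.42 for G alpha, 0.55 for beta and gamma and 0.79 for the receptors. For the other regulators it was 0.57 and for the effectors 0.56.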

How the data were processed

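The authors deposited 3 libraries (technical replicates, per the labels) on mm10, each without scaling to the others. The authors' gene and transcript tables on GENCODE M21 hold expected counts, TPM and the percent of a gene's TPM in each transcript, per the file headers, and a second transcript table holds estimated counts and TPM. A deposited M4 table without a header was taken, from its values, to hold whole-number counts. Neither the programs nor the use of strand was given in the sources used here.

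Symbols came from the transcript IDs. Expected counts were rounded and scaled by TMM (edgeR 4.0.16, R 4.3.3). Genes averaging at least 10 counts were tested by chi-square (2 degrees of freedom) against scaled library sizes, then with the trended dispersion of edgeR, with Benjamini-Hochberg adjusted p under 0.05 over all genes tested. DESeq2 1.42.0 gave alternative size factors. Fold intervals are exact binomial at 95%. The chi-square test was tried on simulated counts with sampling noise only, in which some genes were given a changed level. The simulation held no spread beyond sampling noise, unlike the real libraries, so it does not show how the test behaves under such spread. Intervals and floors (3 counts) cover counting error only, since PCR copies of a molecule could not be told from separate molecules, and p-values measure only the spread between these technical replicates.

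Members, gene lists, rules and tests were chosen with earlier results of these data known. Named were all members, transcripts with a mean share of at least 10% or the highest of their gene, and in each list of signalling genes the 3 highest and the lowest by mean TPM, plus genes with a range of at least 3-fold and a mean count of at least 50. Marker lists are given by their sums and detected genes; more of their genes pass that range, and those printed were picked after their values were seen. Rgs1-208, Rgs13, Rgs4 and the 3′ ends of Rgs3 were added after their values were seen. The 3 nearest genes were named for the 2 members with the widest range, except 1 that is not reported here. Transcript sequences are from GENCODE M21.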

Additional observations from a re-analysis of the deposited data

How the results depend on the processing

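Scaling by DESeq2 size factors, dropping the filter on low counts, the second quantification and the M4 counts each kept 7 members called against sampling noise, and total count scaling kept 6, without Rgs19. Leaving out 1 library gave 5 to 7 members and 4224 to 6953 genes in all, against 8496 with 3 libraries. The lowest of both came without replicate 3, where Rgs2 and Rgs19 were lost. No member was called with the trended or the common dispersion of edgeR, nor with the trended one without each library in turn or in the second quantification. The alternatives to the detection level all gave 7 members detected, and 7 to 10 genes of the family. The number of neighbours apart in the order was 3, became 5 in M4 counts per coding base, and the cause was not tested. That alternative and the transcript shares by count, in which 7 of 8 leading transcripts were the same, were chosen after seeing the data. Absolute levels moved by more than the SD between libraries in 5 of 8 members under the second quantification and in 7 of 8 under M4 counts per coding base. Rescaling the TPM by TMM or leaving out a library moved none by that much. For gene levels, depth limits Rgs18 alone among the members, while the transcript shares of Rgs2 also rest on few counts. No paired analysis was possible because the libraries form 1 group.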
